A study of Homo sapiens with 12 samples.

Results

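The 39 genes described here encode the aminoacyl-tRNA synthetases and their scaffold proteins, and they were taken by gene symbol. They comprise 20 cytosolic enzymes, 16 mitochondrial enzymes with symbols that end in 2, and the scaffold proteins AIMP1, AIMP2 and EEF1E1. All 39 were found among the 28008 genes of the silencing table and among the 25435 genes of the overexpression table. All 39 also passed the filter on low counts in both, where 14683 and 13836 genes were tested. RNA-Seq was performed on LNCaP cells, a line of human prostate cancer cells, in 2 experiments with 3 libraries per group.

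For silencing, vehicle (DOX negative) or 500 ng/mL doxycycline (DOX positive) was given to LNCaP-ER/tet-MUC1shRNA cells over 7 days. LNCaP-ER cells were selected by continuous exposure to enzalutamide, and both groups carried the inducible MUC1shRNA in a puromycin vector. No DOX-treated library without this shRNA was analysed here, so an effect of the drug and an effect of the shRNA cannot be told apart. In the overexpression experiment, LNCaP/MUC1-C OE cells, made with MUC1-C in a lentiviral vector with a CMV promoter, were compared with LNCaP control cells. The labels call these controls wild-type while the columns call them vector, so whether they held an empty vector is not settled. The labels of the OE cells give tetMUC1-C as their treatment.

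Aminoacyl-tRNA synthetases join each amino acid to its tRNA and so supply both cytosolic and mitochondrial translation. Most amino acids are served by separate nuclear genes for the cytosol and for mitochondria, while GARS and KARS each encode the enzyme of both compartments. In the cytosol, several synthetases are held with AIMP1, AIMP2 and EEF1E1 in the multisynthetase complex. Many cytosolic synthetase genes are known targets of ATF4, the transcription factor of the integrated stress response, which is translated when amino acids are short or the endoplasmic reticulum is under stress.

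The silencing libraries held 28045894 to 45807989 counts, the LNCaP control libraries 18017941 to 19208944 and the OE libraries 13806856 to 17583673. The lowest count of any member in any library was 143, for FARS2 in the overexpression experiment. MUC1 counts in the DOX negative libraries were 26, 10 and 13, and in the DOX positive libraries 3, 42 and 8. The library labelled DOX positive replicate 2 therefore held more MUC1 counts than every DOX negative library, against its label, and MUC1 did not pass the test (log2 fold change 0.12, adjusted p = 0.935, edgeR's quasi-likelihood test). It also listed 11.2% of genes at 0, where the other 5 silencing libraries listed 28.0% to 38.1%, so counts of members are also given without it. MUC1 counts in the overexpression experiment followed the labels, with 30, 25 and 31 in the controls and 9168, 9959 and 12622 in the OE libraries. Levels are given in CPM, counts scaled to library size with TMM factors. The summed CPM of 10 luminal prostate markers was 6971 to 8199 in the silencing libraries, 393 to 407 in the LNCaP controls and 104 to 115 in the OE libraries, in which KLK2, KLK3 and FOLH1 were at 0 counts.

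The levels of the members were first set side by side within the DOX negative libraries, in TPM, which are corrected for gene length. The median over the 20 cytosolic synthetases was 50.4 TPM, and the median over the 16 mitochondrial synthetases was 8.16 TPM. GARS, the glycyl-tRNA synthetase, was highest at 155 ± 16.6 TPM (SD, n = 3). The mitochondrial valine enzyme VARS2 was lowest at 1.15 TPM. The ranges of the compartments overlapped, since the mitochondrial isoleucine enzyme IARS2 reached 43.6 TPM and the cytosolic valine enzyme VARS was at 5.98 TPM. The median of the 3 scaffold proteins was 16.0 TPM, and AIMP2 was the highest of them at 61.1 TPM. The order of neighbouring genes in this ranking was not tested.

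**Figure D1:**
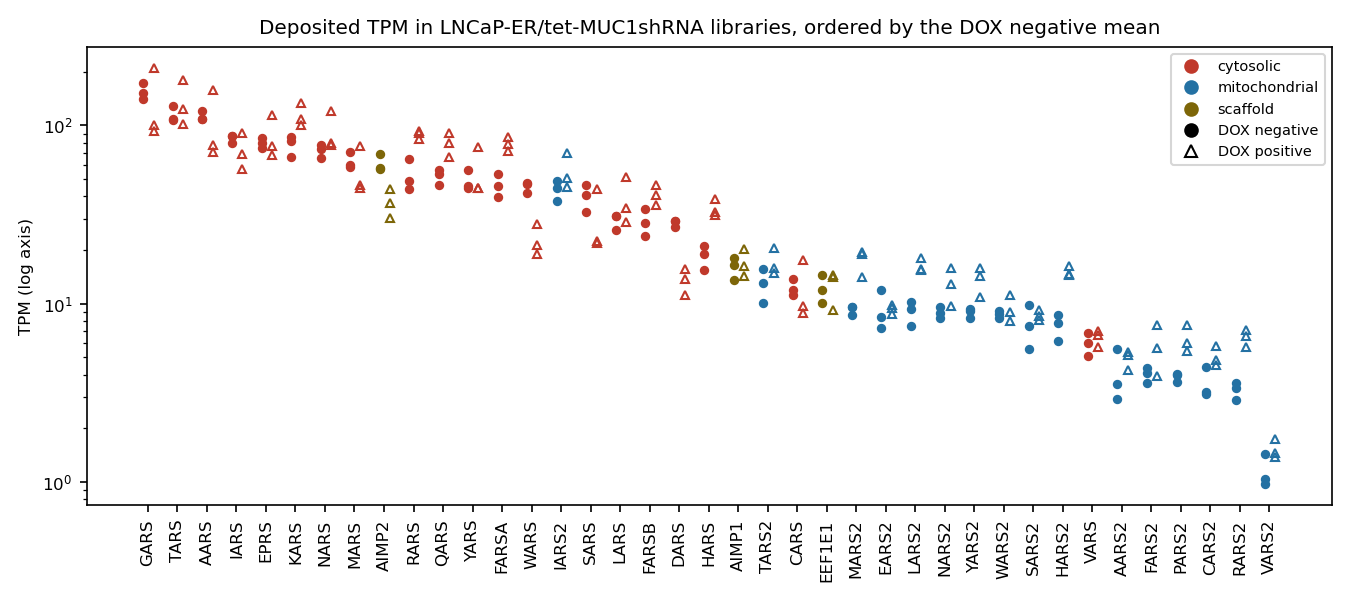
Deposited TPM (log axis) of the 39 members in each LNCaP-ER/tet-MUC1shRNA library, with filled circles for DOX negative, open triangles for DOX positive and colours for the class of the gene. Cytosolic synthetases fill most of the left side, from 155 TPM for GARS, and mitochondrial synthetases most of the right side, down to 1.15 TPM for VARS2, both as DOX negative means.

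Silencing was examined first, to ask how synthetase transcripts differed between DOX positive and DOX negative cells. Of the 20 cytosolic synthetases, 10 were lower and 1 was higher in DOX positive cells, and 9 did not pass the test (edgeR's quasi-likelihood test, Benjamini-Hochberg adjusted p under 0.05 over all genes tested). Of the 16 mitochondrial synthetases, 2 were lower, 1 was higher and 13 did not pass. All 3 scaffold proteins were lower. Over all genes tested in this comparison 27.3% were called, with 14.5% lower and 12.8% higher. The median log2 fold change was -0.43 for the cytosolic and -0.07 for the mitochondrial synthetases, beside -0.02 for all genes tested, but in the deposited TPM, in which the median of all genes tested rose by 0.45 on the log2(TPM + 1) scale, these medians were 0.12 and 0.40. The cytosolic minus the mitochondrial median was -0.36 in the count test and -0.29 in TPM, so the order of the compartments was the same on both scales. Both scales come from the same libraries, and a factor per library largely cancels in such a difference. The TPM value is therefore not independent evidence. Of the 29 members below 0 in the count test, 20 were above 0 in the deposited TPM, among them 6 of those called lower, and AARS, CARS, DARS, GARS, IARS, MARS, SARS, WARS and AIMP2 stayed below 0. All fold changes below are relative to the scaling of the count test. Without the library labelled DOX positive replicate 2, 11 cytosolic synthetases were lower and 3 higher, and 2 mitochondrial synthetases were lower and 4 higher. The cytosolic count called lower was 5 without DOX negative replicate 2 or 3 and 6 without DOX positive replicate 1 or 3, and the mitochondrial count was 0 or 1 without each of these. In these bulk samples, less RNA per cell and fewer cells of a type cannot be told apart.

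**Figure D2:**
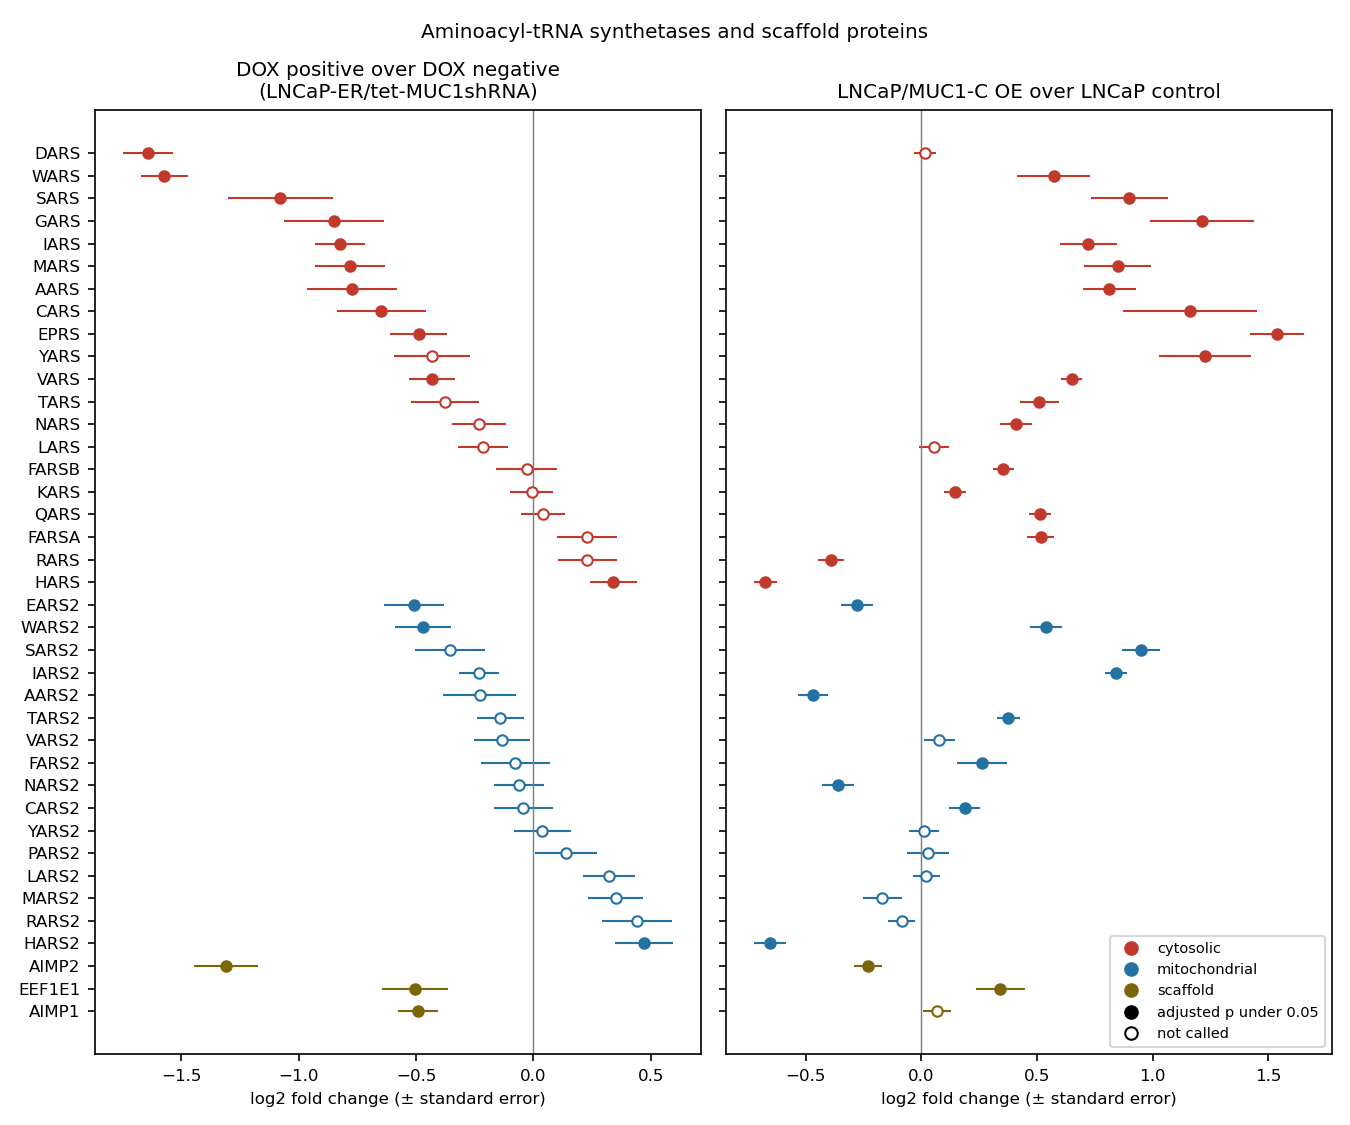
Log2 fold change with its standard error for each member in both experiments (3 libraries per group, relative to TMM scaling), filled where the adjusted p was under 0.05. In DOX positive cells 10 of 20 cytosolic synthetases were called lower, a direction that turned for VARS and EPRS in deposited TPM, and in MUC1-C OE cells 16 of 20 were called higher, while the mitochondrial synthetases lay on both sides of 0 in both panels.

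WARS, which charges tryptophan, had the smallest p of the cytosolic enzymes. WARS was at 181, 217 and 216 CPM in the DOX negative libraries and at 67.1, 69.5 and 69.6 CPM in the DOX positive libraries, so every DOX positive library lay far below every DOX negative one. This was a 2.97-fold lower level, with a log2 fold change of -1.57 (SE 0.10, adjusted p = 0.000114, edgeR). DARS, the aspartyl-tRNA synthetase of the multisynthetase complex, was similarly low at 46.5, 41.4 and 44.1 CPM against 121, 143 and 149 CPM. Its log2 fold change was -1.64 (SE 0.11, adjusted p = 0.000114, edgeR), the lowest of the 39 members. For both genes the spread among the DOX positive libraries was small beside the difference between groups, and both stayed lower in the deposited TPM.

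IARS, the isoleucyl-tRNA synthetase, was at 555, 661 and 677 CPM in DOX negative and at 357, 370 and 342 CPM in DOX positive libraries (log2 fold change -0.82, SE 0.11, adjusted p = 0.00134, edgeR). MARS, which charges methionine onto both initiator and elongator tRNAs, was at 228, 316 and 297 CPM and at 137, 186 and 166 CPM (log2 fold change -0.78, SE 0.15, adjusted p = 0.00651, edgeR). SARS, the seryl-tRNA synthetase, which also serves the selenocysteine tRNA, was at 221, 368 and 365 CPM and at 119, 190 and 143 CPM (log2 fold change -1.08, SE 0.22, adjusted p = 0.00867, edgeR). In these 3 genes the groups did not overlap, and DOX negative replicate 1 was the lowest library of its group. VARS differed less, with 256, 266 and 254 CPM against 202, 169 and 203 CPM (log2 fold change -0.43, SE 0.10, adjusted p = 0.0129, edgeR). Its direction turned in the deposited TPM, at 0.10 on the log2(TPM + 1) scale. The other cytosolic enzymes called lower were GARS at -0.85, AARS at -0.77, CARS at -0.65 and EPRS at -0.49, which was at 0.07 in the deposited TPM. Of the 10 called lower, the groups of CARS alone overlapped, which left 9 without overlap, beside 23% of all genes tested. DARS, IARS, MARS, SARS and WARS were called lower whichever of the 6 libraries was left out, and the other 5 were not.

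HARS was the only cytosolic synthetase called higher. The histidyl-tRNA synthetase was at 61.2, 65.4 and 59.7 CPM in DOX negative and at 77.8, 71.8 and 86.3 CPM in DOX positive libraries, with no overlap (log2 fold change 0.34, SE 0.10, adjusted p = 0.0339, edgeR). Its mitochondrial partner HARS2 was also higher, at 39.4, 35.2 and 46.6 CPM against 28.9, 30.9 and 27.8 CPM (log2 fold change 0.47, SE 0.12, adjusted p = 0.0227, edgeR). Both calls held without the library labelled DOX positive replicate 2 and were lost when any of the other 5 libraries was left out. The subunits of phenylalanyl-tRNA synthetase, FARSA and FARSB, had log2 fold changes of 0.23 and -0.03. FARSA was at 121, 122 and 120 CPM against 158, 113 and 153 CPM, and FARSB at 118, 115 and 110 CPM against 129, 90.3 and 117 CPM, so the groups overlapped for both (adjusted p = 0.212 and 0.887, edgeR).

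Of the mitochondrial synthetases, WARS2 and EARS2 were called lower. WARS2, for tryptophan, was at 33.4, 35.8 and 42.7 CPM in DOX negative and at 26.7, 26.3 and 27.7 CPM in DOX positive libraries (log2 fold change -0.47, SE 0.12, adjusted p = 0.0187, edgeR). EARS2, for glutamate, was at 66.8, 56.2 and 54.8 CPM and at 43.1, 35.4 and 46.4 CPM (log2 fold change -0.51, SE 0.13, adjusted p = 0.0197, edgeR). Neither gene had overlapping groups, and both directions turned in the deposited TPM, at 0.08 and 0.04 on the log2(TPM + 1) scale. WARS2 lost its call in 4 of the 6 fits with a library left out and EARS2 in 2 of the 6. MARS2 (log2 fold change 0.35, SE 0.12) was at 38.7, 45.7 and 46.5 CPM against 62.1, 50.6 and 54.1 CPM, and RARS2 (0.44, SE 0.15) at 16.1, 17.7 and 17.2 CPM against 20.8, 20.3 and 28.0 CPM. The groups did not overlap, but neither gene passed the test (adjusted p = 0.0538 and 0.0551, edgeR). In all, 5 of the 16 mitochondrial enzymes were higher without overlap and 3 were lower without overlap, beside 21.2% and 23% of all genes tested.

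The scaffold proteins were lower in every DOX positive library than in any DOX negative library. AIMP2, the central scaffold of the multisynthetase complex, was at 99.5, 143 and 134 CPM and at 52.3, 49.2 and 50.5 CPM, a 2.48-fold lower level (log2 fold change -1.31, SE 0.14, adjusted p = 0.000602, edgeR). AIMP1 was at 77.7, 83.1 and 77.9 CPM and at 56.4, 55.4 and 57.8 CPM (log2 fold change -0.49, SE 0.09, adjusted p = 0.00439, edgeR). EEF1E1, which links the complex to elongation factor 1, was at 20.0, 19.4 and 18.5 CPM and at 15.9, 12.8 and 12.1 CPM (log2 fold change -0.51, SE 0.14, adjusted p = 0.0276, edgeR). AIMP2 stayed lower in the deposited TPM, while AIMP1 and EEF1E1 were at 0.06 and 0.04 there. Of the 11 genes of the complex, 8 enzymes and 3 scaffolds, 7 were lower and 0 were higher by edgeR's quasi-likelihood test. Over all genes tested 14.5% were lower and 12.8% higher, and the median log2 fold change of the complex was -0.49.

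The cytosolic synthetases were then divided by a list of 13 that are linked to ATF4 in general knowledge. All 13 had negative log2 fold changes, of which 9 were called lower, with a median of -0.65, but EPRS, LARS, NARS, TARS, VARS and YARS were above 0 in the deposited TPM. Of the other 7 cytosolic enzymes, DARS was called lower and HARS higher, with a median of 0.04. Over all genes tested 14.5% were called lower and 12.8% higher. Within groups the 13 genes also moved by library. DOX negative replicate 1 was the lowest of its group in 12 of the 13, beside 40.3% of all genes tested. The library labelled DOX positive replicate 2 was the highest of its group in 11 of the 13, beside 42.1% of all genes. ATF4 itself was at 432, 654 and 653 CPM in DOX negative and at 190, 399 and 207 CPM in DOX positive libraries, so the same 2 libraries were nearest to the other group (log2 fold change -1.13, SE 0.28, adjusted p = 0.0186, edgeR). No correlation with ATF4 was computed, since each group holds 3 libraries.

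**Figure D3:**
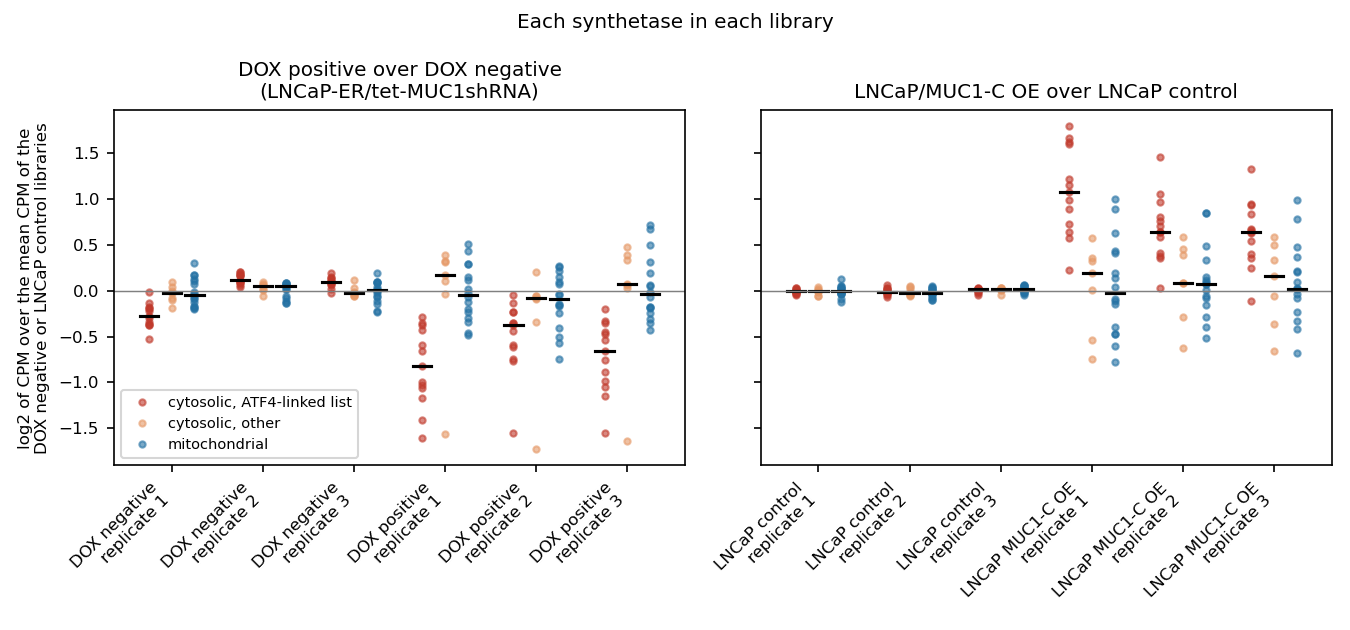
Log2 of the CPM of each synthetase in each library over its mean in the DOX negative or LNCaP control libraries, with black bars for the median of ATF4-linked cytosolic, other cytosolic and mitochondrial enzymes. The ATF4-linked enzymes were lower in the DOX positive libraries on this TMM scale (9 of 13 called), and higher in the OE libraries (12 of 13 called), with DOX negative replicate 1, the library labelled DOX positive replicate 2 and OE replicate 1 set apart within their groups.

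Promoter sequence was examined next as a description, in the members and in all genes with a promoter sequence. RefSeq promoter windows (GRCh38.p14, 250 bases before to 50 bases after the transcription start) were matched for 33 of the 39 members, and DARS, LARS, VARS, YARS, AARS2 and VARS2 had no entry. The letters TGATGNAA, the C/EBP-ATF response element that ATF4 binds with C/EBP partners, were searched on both strands. They were found in 7 of 10 ATF4-linked cytosolic members with a window, in 0 of 6 other cytosolic members, in 1 of 14 mitochondrial members and in 0 of 3 scaffold members, beside 4.46% of 27305 genes and 3.62% of 35116 windows. A match of letters is a description and does not show binding. The list holds genes already linked to ATF4, so its share of matches is not independent evidence. The matches are shown with the element in capitals, 5′ to 3′ on the strand of the gene.
AARS, chr16:70289675-70289704, minus strand: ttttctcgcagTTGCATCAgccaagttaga
CARS, chr11:3057407-3057436, minus strand: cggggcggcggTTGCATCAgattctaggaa
GARS, chr7:30594834-30594863, plus strand: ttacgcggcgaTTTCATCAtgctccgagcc
IARS, chr9:92293692-92293721, minus strand: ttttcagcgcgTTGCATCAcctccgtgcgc
MARS, chr12:57488053-57488082, plus strand: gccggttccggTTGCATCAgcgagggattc
NARS, chr18:57621804-57621833, minus strand: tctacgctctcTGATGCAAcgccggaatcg
TARS, chr5:33440956-33440985, plus strand: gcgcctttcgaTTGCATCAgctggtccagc
YARS2, chr12:32756076-32756105, minus strand: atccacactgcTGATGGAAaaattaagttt

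In 5 of these 8 genes the element was TTGCATCA as read on the strand of the gene, namely AARS, CARS, IARS, MARS and TARS. NARS held the same 8 letters in the opposite orientation, while GARS and YARS2 had another letter at the free position. The element began within 33 bases of the start in 6 of the 8 genes, and 187 and 197 bases before it in AARS and YARS2. AARS, CARS, GARS, IARS and MARS were called lower in DOX positive cells, while NARS (-0.23) and TARS (-0.38) did not pass the test, and YARS2 was at 0.04. WARS, SARS and EPRS, all called lower, had windows without these letters. The letters CACGTG, the E-box bound by MYC among others, were found in 5 of the 33 members, which were IARS, CARS2, EARS2, MARS2 and AIMP2, beside 8.77% of all genes. MYC was called lower in DOX positive cells (log2 fold change -0.59, SE 0.19, adjusted p = 0.0491, edgeR). Its groups overlapped, at 375, 623 and 622 CPM in DOX negative and at 391, 376 and 313 CPM in DOX positive libraries.

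To determine how the same genes differed with MUC1-C overexpression, LNCaP/MUC1-C OE cells were compared with LNCaP control cells. Of the 20 cytosolic synthetases, 16 were higher and 2 were lower in OE cells by edgeR's quasi-likelihood test, and LARS and DARS did not pass. Of the 16 mitochondrial enzymes, 6 were higher, 4 were lower and 6 did not pass. Over all genes tested in this comparison 67.3% were called, with 33.2% higher and 34.1% lower, so the share of cytosolic enzymes called higher was above this background and the shares of mitochondrial enzymes were near it. The median log2 fold change was 0.54 for the cytosolic and 0.02 for the mitochondrial enzymes, beside -0.01 for all genes tested, and with library size as the only scaling these were 0.39, -0.13 and -0.16. Under that scaling 14 cytosolic enzymes were higher and 3 lower, and the mitochondrial counts changed over to 4 higher and 6 lower, while DESeq2 called 4 mitochondrial enzymes higher and 4 lower. Luminal markers fell in the same OE libraries (8 of 10 called lower). Of 10 markers of other cell types 4 were tested, of which 2 were called higher and 2 lower. VIM, a mesenchymal filament, was at 435 to 480 CPM in controls and at 1242 to 1339 CPM in OE cells. SYP was also higher, at 0.36 on the log2 scale, while COL1A1 at -0.38 and CHGA at -0.86 were lower. Of the cytosolic enzymes, 16 were higher and 2 lower without overlap of the groups, and of the mitochondrial enzymes 6 and 5, beside 34.4% higher and 35.9% lower of all genes tested. The part of the wider difference in markers in the synthetase result was not tested.

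VARS had the smallest p of the cytosolic enzymes in this experiment, at 113, 113 and 116 CPM in controls and at 178, 178 and 181 CPM in OE libraries (log2 fold change 0.65, SE 0.05, adjusted p = 9.96e-10, edgeR). QARS, for glutamine, was at 221, 237 and 230 CPM and at 342, 316 and 326 CPM (log2 fold change 0.51, SE 0.05, adjusted p = 3.86e-08, edgeR). The phenylalanine subunits rose together, FARSA by 0.52 and FARSB by 0.35 on the log2 scale. FARSA was at 112, 118 and 119 CPM and at 149, 175 and 174 CPM, and FARSB at 189, 177 and 184 CPM and at 230, 241 and 232 CPM, with no overlap for either (adjusted p = 5.98e-07 and 2.94e-06, edgeR). In all 4 genes every OE library lay above every control.

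The largest log2 fold changes, named after their values were seen, belonged to EPRS at 1.54, YARS at 1.23, GARS at 1.22 and CARS at 1.16. EPRS, which joins glutamate and proline to their tRNAs in a single protein, was at 284, 277 and 286 CPM in controls and at 980, 776 and 708 CPM in OE libraries, a 2.91-fold higher level (SE 0.12, adjusted p = 2.15e-05, edgeR). GARS was at 204, 216 and 200 CPM and at 636, 406 and 396 CPM (SE 0.23, adjusted p = 0.00826, edgeR). OE replicate 1 stood above the other OE libraries in both genes, and without it the log2 fold changes were 1.39 for EPRS and 0.96 for GARS. WARS, at 192, 196 and 190 CPM against 359, 247 and 254 CPM, was higher by 0.57 (SE 0.16, adjusted p = 0.0231, edgeR). DARS was at 212, 205 and 216 CPM and at 213, 225 and 204 CPM, so these groups overlapped throughout (log2 fold change 0.02, SE 0.05, adjusted p = 0.776, edgeR).

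HARS and RARS were the cytosolic enzymes called lower in OE cells. HARS was at 161, 160 and 165 CPM in controls and at 96.7, 105 and 103 CPM in OE libraries (log2 fold change -0.67, SE 0.05, adjusted p = 1.62e-09, edgeR). RARS, for arginine, was at 325, 309 and 324 CPM and at 220, 261 and 248 CPM (log2 fold change -0.39, SE 0.06, adjusted p = 7.59e-06, edgeR). Both were lower in 3 of 3 OE libraries than in any control.

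Among the mitochondrial enzymes, IARS2 was at 233, 222 and 227 CPM in controls and at 422, 410 and 390 CPM in OE libraries (log2 fold change 0.84, SE 0.05, adjusted p = 4.76e-11, edgeR). SARS2, for serine, was at 14.6, 13.3 and 14.2 CPM and at 28.1, 25.2 and 28.0 CPM (log2 fold change 0.95, SE 0.08, adjusted p = 1.72e-08, edgeR). HARS2 moved the other way, at 50.1, 50.6 and 50.4 CPM against 29.4, 35.2 and 31.5 CPM (log2 fold change -0.66, SE 0.07, adjusted p = 2.26e-07, edgeR). The groups of all 3 were apart. WARS2 was at 32.8, 35.6 and 36.0 CPM and at 54.1, 49.0 and 48.7 CPM (log2 fold change 0.54, SE 0.07, adjusted p = 1.81e-06, edgeR), and TARS2, for threonine, at 80.0, 81.9 and 83.0 CPM and at 109, 103 and 106 CPM (log2 fold change 0.38, SE 0.05, adjusted p = 3.29e-06, edgeR). AARS2 at -0.47, NARS2 at -0.36 and EARS2 at -0.28 were also called lower, and CARS2 at 0.19 and FARS2 at 0.26 higher.

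The scaffold proteins did not move together in OE cells. AIMP2 was at 66.2, 65.9 and 63.2 CPM in controls and at 51.3, 56.4 and 58.4 CPM in OE libraries (log2 fold change -0.23, SE 0.06, adjusted p = 0.00272, edgeR). EEF1E1 was at 19.5, 20.1 and 22.1 CPM and at 21.4, 30.2 and 26.7 CPM, higher by 0.34 with overlapping groups (SE 0.10, adjusted p = 0.00873, edgeR). AIMP1 was at 77.6, 72.2 and 79.3 CPM and at 74.4, 85.7 and 80.1 CPM and did not pass (log2 fold change 0.07, SE 0.06, adjusted p = 0.335, edgeR). Of the 11 genes of the multisynthetase complex, 6 were higher and 2 lower, beside 33.2% and 34.1% of all genes tested.

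All 13 ATF4-linked synthetases had positive log2 fold changes in OE cells, of which 12 were called higher, with a median of 0.81, but LARS, which was not called, was below 0 with library size as the only scaling. Of the other 7 cytosolic enzymes, 4 were called higher and 2 lower (median 0.15). Over all genes tested 33.2% were called higher and 34.1% lower. OE replicate 1 was the highest OE library in 12 of the 13, beside 37.7% of all genes tested. ATF4 was at 449, 471 and 435 CPM in controls and at 926, 893 and 915 CPM in OE libraries (log2 fold change 1.01, SE 0.04, adjusted p = 2.19e-12, edgeR), so OE replicate 1 stood less apart for ATF4 than for EPRS or GARS. MYC was at 105, 115 and 115 CPM and at 130, 121 and 123 CPM (log2 fold change 0.16, SE 0.05, adjusted p = 0.0117, edgeR).

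The 2 experiments share no libraries, and the calls of each member were set side by side. Of the 39 members, 11 were called lower in DOX positive and higher in OE cells, and 2 were called higher in DOX positive and lower in OE cells, beside 7.94% and 6.63% of the 11682 genes tested in both experiments. The 11 were AARS, CARS, EPRS, GARS, IARS, MARS, SARS, VARS, WARS, WARS2 and EEF1E1, of which the first 9 are cytosolic enzymes. The 2 were HARS and HARS2. EARS2 and AIMP2 were called lower in both experiments, beside 3.56% of those genes, and 7 members were called in neither. The experiments differ in cell line, vector and depth, and the difference between their fold changes was not tested. MUC1 RNA was not called in the silencing experiment, so these counts do not show the experiments to be opposite changes of MUC1. It was near the floor there, at 3 to 42 counts per library, so its test could hardly detect silencing. The paper describes MUC1-C as silenced in DOX-treated LNCaP-ER/tet-MUC1shRNA cells, with immunoblots, and protein was not examined here.

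**Figure D4:**
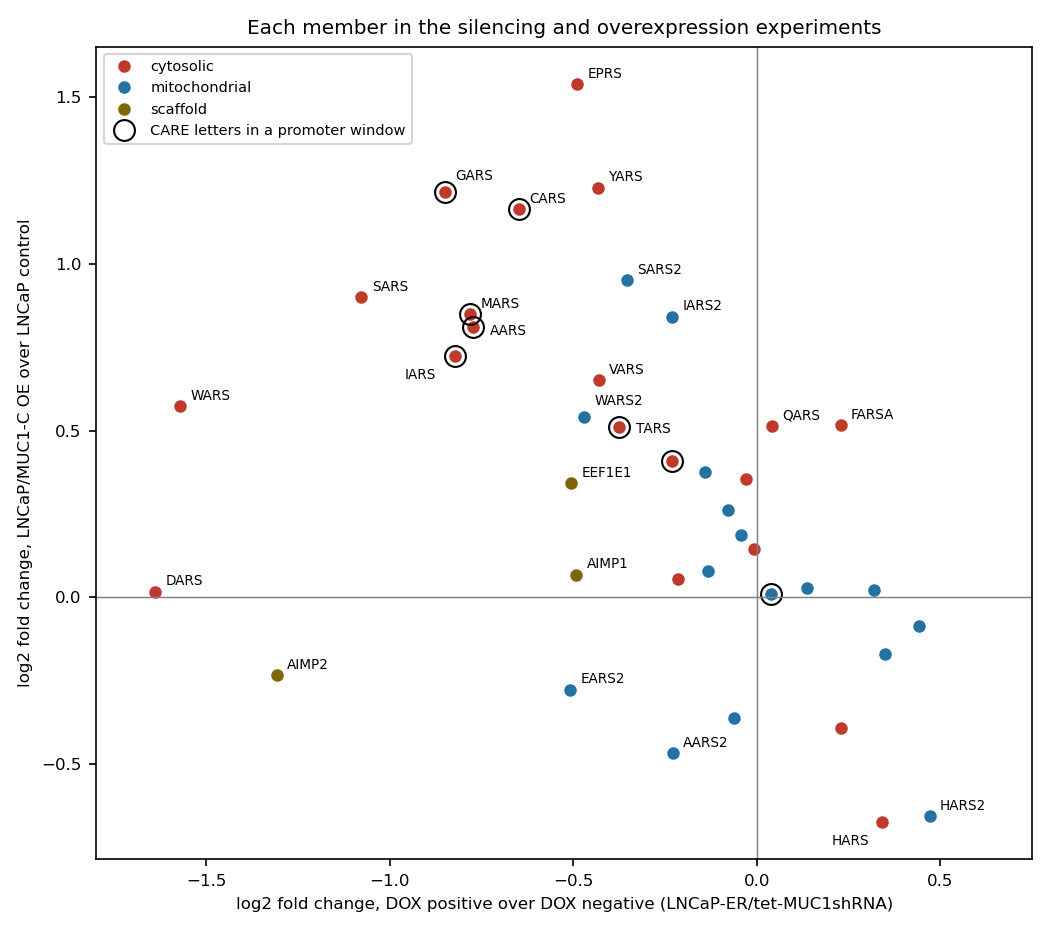
Log2 fold change of each member in the silencing experiment (x axis) and in the overexpression experiment (y axis), coloured by class, with rings for the 8 members with TGATGNAA letters in a promoter window. The upper left holds 9 cytosolic enzymes called in both experiments, HARS and HARS2 lie at the lower right, and DARS lies at -1.64 and 0.02; in deposited TPM the x values of 20 of the 29 members left of 0 were above 0, among the called ones those of EPRS, VARS, WARS2, EARS2, AIMP1 and EEF1E1.

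HARS and HARS2 are neighbours on chromosome 5 and are transcribed away from each other. Their RefSeq starts (GRCh38.p14) are 85 bases apart, and the 84 bases between them are shown because both genes were called in the same direction in each experiment. The sequence is on the strand of HARS2, with CG dinucleotides in capitals.
HARS to HARS2, chr5:140691371-140691454, plus strand: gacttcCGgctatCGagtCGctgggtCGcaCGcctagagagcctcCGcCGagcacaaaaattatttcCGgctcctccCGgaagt
The stretch holds 9 CG dinucleotides and 59.5% G or C. The annotated protein-coding transcripts of HARS and HARS2 share 0 stretches of 50 bases, of 4408 in HARS and 3265 in HARS2. Whether the counting used strand is not given in the sources used here, so reads from any overlapping ends of the 2 genes cannot be told apart.

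The 16 pairs of a cytosolic and a mitochondrial enzyme for the same amino acid were compared within each experiment, with EPRS in a pair with EARS2 and in a pair with PARS2. The cytosolic log2 fold change was below the mitochondrial one in 14 of 16 pairs in DOX positive cells, with a median difference of -0.50. The pairs with EPRS and EARS2 (0.02) and with FARSA and FARS2 (0.31) were the exceptions. The pair for methionine differed by -1.13 and that for tryptophan by -1.10, while that for histidine differed by -0.13. In OE cells the cytosolic value was above in 12 of 16 pairs, with a median difference of 0.41. The pair of EPRS and EARS2 differed there by 1.82 and that of AARS and AARS2 by 1.28, while the pairs for arginine, isoleucine, serine and histidine had the cytosolic enzyme below. The scaling of libraries cancels out in a difference within a pair.

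The summed CPM of the 20 cytosolic synthetases was 5158, 6524 and 6391 in DOX negative and 3994, 4566 and 4150 in DOX positive libraries, without overlap. The sum of the 16 mitochondrial synthetases was 731, 746 and 727 and then 693, 670 and 728, with overlap. The cytosolic sum was thus 7.06, 8.74 and 8.80 times the mitochondrial sum in DOX negative libraries and 5.77, 6.82 and 5.70 times in DOX positive libraries. In the overexpression experiment this ratio was 5.18, 5.24 and 5.19 in the controls and 7.74, 6.13 and 6.02 in OE libraries. The ratios did not overlap between groups in either experiment, and 3 libraries against 3 cannot give a two-sided exact permutation p below 0.1, so no test is given.

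**Figure D5:**
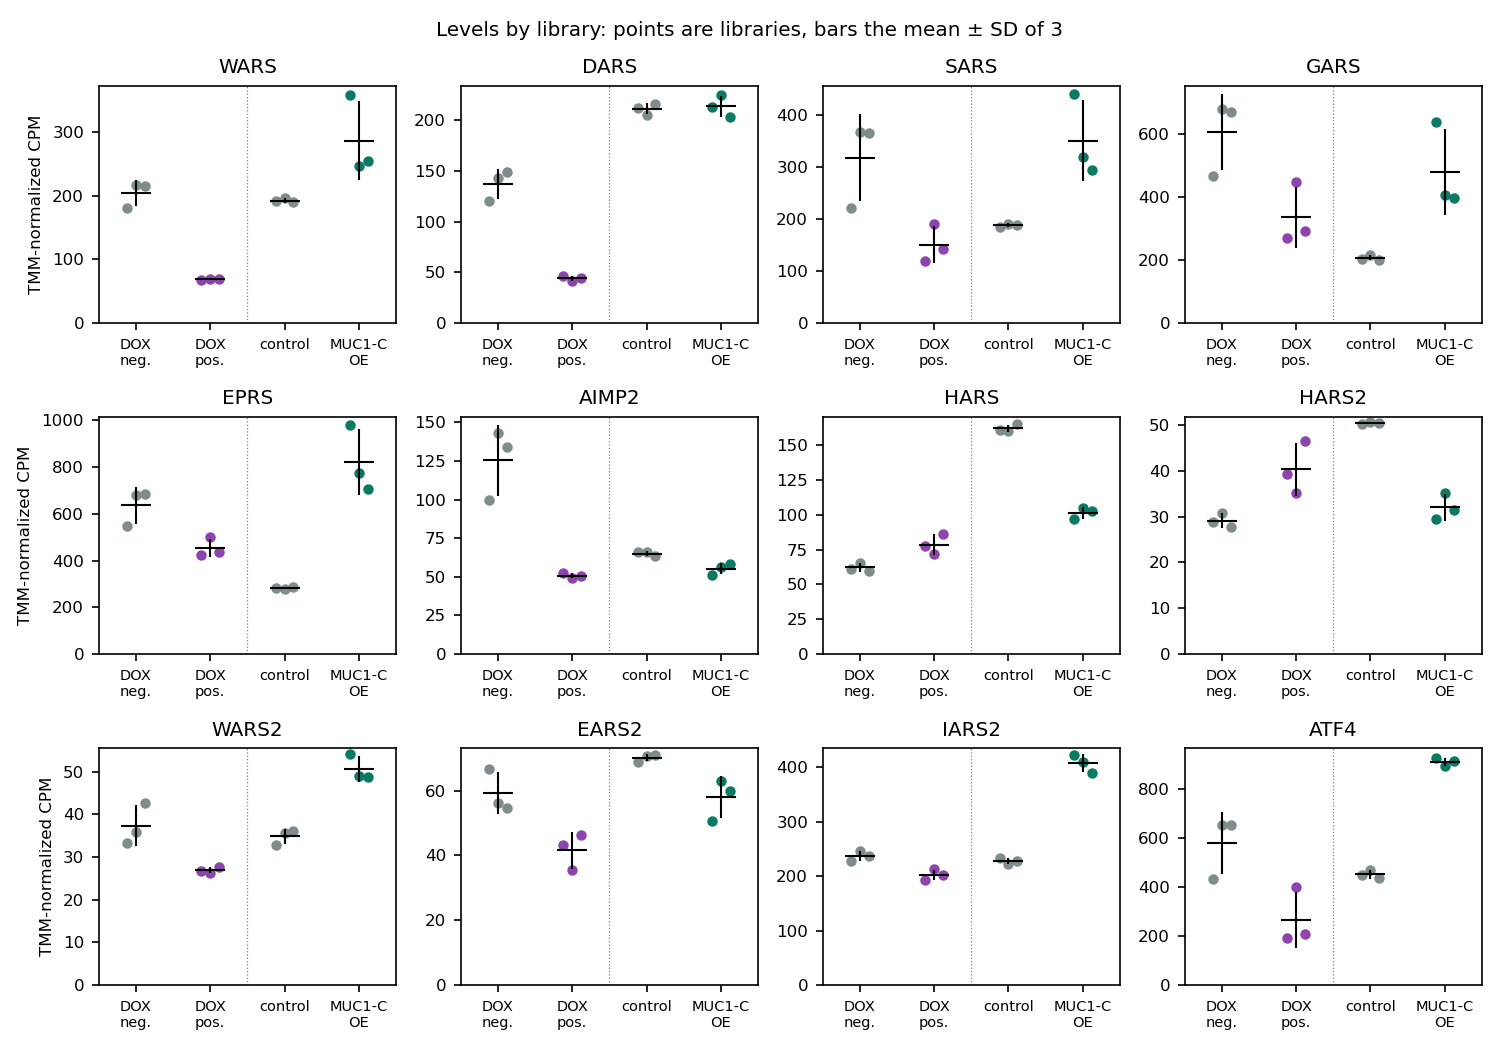
TMM-normalized CPM of 11 members and of ATF4 in each library, with the mean and SD of the 3 libraries of each group and axes that start at 0. WARS, DARS and AIMP2 lie apart between DOX groups, EPRS and IARS2 lie apart between LNCaP control and OE, and HARS and HARS2 move up with DOX and down with OE on this scale.

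Other genes of tRNA charging and translation were counted from lists. Among the accessory genes of charging, QRSL1, a subunit of the mitochondrial glutamine amidotransferase, was lower in DOX positive cells at -0.59. The tRNA exportin XPOT at -0.82 and DTD2 at -0.28 were lower as well. XPOT was at 860, 1189 and 1166 CPM in DOX negative and at 561, 761 and 500 CPM in DOX positive libraries, again with replicate 1 the lowest DOX negative library. In OE cells XPOT was higher, at 0.48, and QRSL1 was lower, at -0.30. EEF1A1, which brings charged tRNA to the ribosome, was called in opposite directions, at -0.69 in DOX positive and 0.59 in OE cells. It was the only called gene of 5 elongation factor 1 genes in the silencing experiment, beside 27.3% of all genes tested. In OE cells 3 of these genes were higher and 2 lower, beside 33.2% and 34.1% of all genes tested.

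The share of mitoribosomal proteins called was below the background in each direction of both experiments. Of 76 mitoribosomal proteins, 9 were lower and 6 higher in DOX positive cells (median log2 fold change 0.05), and of 75 in OE cells, 20 were lower and 22 higher (median 0.01). MRPL42 had the smallest p in the silencing experiment, at 298, 285 and 306 CPM against 136, 98.7 and 108 CPM (log2 fold change -1.37, SE 0.13, adjusted p = 0.00046, edgeR). Of the mitochondrial translation factors, 2 of 10 were lower and GFM1 was higher in DOX positive cells, and 4 of 11 were lower in OE cells. Of 20 genes for tRNA transcription by RNA polymerase III, 3 were lower and 2 higher in DOX positive cells, and 6 were lower and 9 higher in OE cells. Over all genes tested, the shares beside the counts of this paragraph were 14.5% lower and 12.8% higher in DOX positive cells. In OE cells these shares were 34.1% lower and 33.2% higher.

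Genes of the integrated stress response, several of them targets of ATF4, were counted last. In DOX positive cells 7 of 20 passed the test as lower, 1 passed as higher and 12 did not pass. The background for these counts was 14.5% lower and 12.8% higher among all genes tested. The 20 genes had a median log2 fold change of -0.91, against -0.02 for all genes tested. The cystine transporter SLC7A11 was at 462, 674 and 718 CPM in DOX negative and at 89.2, 267 and 122 CPM in DOX positive libraries (log2 fold change -1.95, SE 0.37, adjusted p = 0.00613, edgeR). PHGDH, the entry enzyme of serine synthesis, was at -0.91, and the asparagine synthetase ASNS at -1.08. These 3 genes were among those called lower. ATF3, DDIT3, TRIB3, CHAC1, SESN2 and DDIT4 were not called, and the groups of each overlapped. EIF2AK3 was the gene called higher, at 0.38. DOX negative replicate 1 was the lowest of its group in 19 of the 20 genes, and the library labelled DOX positive replicate 2 the highest in 17 of the 20. In OE cells 12 of 19 passed as higher, 2 passed as lower and 5 did not pass. The background there was 33.2% higher and 34.1% lower among all genes tested. The median of the 19 genes was 1.01, against -0.01 for all genes tested. SESN2, an inhibitor of mTORC1 signaling, was at 47.9, 50.2 and 49.7 CPM in controls and at 157, 168 and 151 CPM in OE libraries (log2 fold change 1.68, SE 0.05, adjusted p = 5.96e-14, edgeR). CEBPG, a C/EBP partner of ATF4, was at 1.45. OE replicate 1 was the highest OE library in 9 of the 19 genes, where it was the highest in 12 of the 13 ATF4-linked synthetases.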

How the data were processed

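RNA was prepared in triplicate cultures and made into stranded mRNA libraries per the labels. The authors aligned the reads with STAR (GRCh38 in the submitters' processing notes) and deposited counts per gene symbol without normalization. TPM deposited by the authors were used for the silencing libraries, scaled by gene length to a constant total per library. The counter, annotation and gene lengths are not given in the sources used here, so reads shared with pseudogenes (listed in RefSeq for 13 members) were assigned in an unstated way. The overexpression table also held 12 columns of other cell lines, which were not used.

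Groups came from the labels, and columns were matched to samples by name. Each experiment was tested alone, on its 6 libraries, with edgeR 4.0.16 (R 4.3.3) and its quasi-likelihood test with Benjamini-Hochberg adjustment, TMM scaling, the default low-count filter, robust dispersions and a threshold of 0.05. CPM are TMM-normalized, and SE is the absolute log2 fold change over the square root of F. The counts carry no molecular identifiers. Alternatives were DESeq2 1.42.0, median-of-ratios factors, library size only, other filters, a log2 fold change of at least 1, a replicate block, each library left out, and limma 3.58.1 on log2(TPM + 1) or log2(TPM + 0.1) with at least 1 TPM in 3 libraries. The procedure was tested on simulated data. Promoter letters were searched in RefSeq windows.

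All members could be named with fold changes. Values per library were given for the smallest p in each experiment, up to 6 cytosolic and 5 mitochondrial enzymes, for the scaffolds, and for the partner enzymes. The members and lists were chosen with earlier results of these data known, so no list is independent evidence. Chi-square per degree of freedom between replicates was 2.20 to 61.7, so no library was taken as a duplicate. Some genes are not reported here.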

Additional observations from a re-analysis of the deposited data

How the results depend on the processing

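In the silencing experiment, 4006 genes were called, with 10 cytosolic synthetases lower and 1 higher and 2 mitochondrial synthetases lower and 1 higher. With a log2 fold change of at least 1, these were 988 genes, 3 and 0 cytosolic, and 0 and 0 mitochondrial. Without a filter, 0 cytosolic enzymes were higher. Mitochondrial enzymes called higher were 3 with median-of-ratios factors, 4 with library size only and 4 with at least 10 counts in every library. In the deposited TPM, on the log2(TPM + 1) and the log2(TPM + 0.1) scale alike, 3 cytosolic enzymes were lower and 6 higher, and 0 mitochondrial enzymes were lower and 6 higher, with 95.2% and 95.1% of all calls higher, against 46.8% in the count test, 54.3% in DESeq2 and 59.6% with library size only. Without a TPM filter these were 2 cytosolic lower, 0 mitochondrial lower and 4 mitochondrial higher among 1589 genes. With TPM centred on the library median, an alternative chosen after seeing the data, 9 cytosolic enzymes were lower and 1 higher, and 2 mitochondrial enzymes lower and 3 higher. On the log2(TPM + 1), log2(TPM + 0.1) and unfiltered TPM scales, EPRS (0.071, 0.071, 0.071), VARS (0.10, 0.12, 0.10), EARS2 (0.037, 0.043, 0.037), WARS2 (0.085, 0.092, 0.085), AIMP1 (0.061, 0.064, 0.061) and EEF1E1 (0.042, 0.043, 0.042) turned above 0, and so did FARSB (0.50, 0.51) and KARS (0.54, 0.55) with the filter. These 8 were called in either fit; in all, 20 of the 29 members below 0 in the count test were above 0 on each of these 3 scales, and 2 of 29 with TPM centred. The median of all genes was higher there by 0.45 with the pseudocount of 1.

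With 1 library left out at a time, 2002 to 5243 genes, 5 to 12 cytosolic enzymes lower, 0 to 3 cytosolic higher, 0 to 2 mitochondrial lower and 0 to 4 mitochondrial higher were called. The cytosolic count was 5 without DOX negative replicate 2 or 3 and 6 without DOX positive replicate 1 or 3, and 2200, 2002 and 2067 genes were called without DOX negative replicate 2, DOX negative replicate 3 and DOX positive replicate 3. AARS, CARS, EPRS, GARS and WARS2 lost their call without each of these 4 libraries, VARS without DOX negative replicate 2 or 3, EARS2 without DOX negative replicate 1 or 2, and EEF1E1 without any of the 5 libraries other than DOX positive replicate 1. The cytosolic minus mitochondrial median lay between -0.49 and -0.28 over these and the other alternatives, beside -0.36.

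In the overexpression experiment 9312 genes were called, with 16 cytosolic enzymes higher and 2 lower and 6 mitochondrial enzymes higher and 4 lower. With a log2 fold change of at least 1 these were 1917 genes, 4 and 0 cytosolic, and 0 and 0 mitochondrial. With library size only, DARS (-0.14) and KARS (-0.0080) turned below 0, and 32.3% of all calls were higher, against 49.4%, with 14 cytosolic higher and 3 lower and 4 mitochondrial higher and 6 lower. With 1 library left out, 8486 to 9512 genes and 13 to 17 cytosolic enzymes higher were called. CARS and WARS lost their call without each control library in turn, KARS without control replicate 3, CARS2 without control replicate 1 or 2, and FARS2 without each control or without OE replicate 1.

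Replicate numbers did not pair the libraries, with correlations of same-numbered deviations of 0.09, -0.003 and -0.07 in the silencing and -0.03, -0.15 and -0.04 in the overexpression experiment. A replicate block called 4226 genes, 12 cytosolic lower and 1 higher, and 2 mitochondrial lower and 2 higher in the first, and 8965 genes, 2 cytosolic lower and 16 higher, and 4 mitochondrial lower and 5 higher in the second. Over all members and alternatives, 461 values of the silencing and 434 of the overexpression experiment kept their side of the threshold and either their direction or, without a call, a value within 1 SE, 60 and 21 lost the call, 42 and 4 gained it, 22 and 2 with a call in either fit turned direction, and 39 and 7 without a call turned direction by more than 1 SE.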
